A study of Arabidopsis thaliana with 14 samples.

Results

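AZI1, EARLI1, AZI3 and AZI4 are neighbouring genes for small lipid transfer proteins of the hybrid proline-rich kind, and DIR1, ALD1 and FMO1 are partners in systemic acquired resistance. These 7 genes, of the 34218 in the count files, were chosen by the measured levels of AZI1 and EARLI1. Both had stood higher 24 h after an empty needle than in untreated leaves at 0 h. Their transcripts were counted by RNA sequencing in rosette leaves of 30-day-old ft-10 plants, a line with a lesion in the flowering gene FT, grown in soil at 22 °C with 16 h of light and 8 h of dark. Silk microneedles carried the gibberellin GA3 at 15 mM (GA3 groups) or nothing (mock), and were taken out before the leaves were frozen. The 5 groups were untreated leaves at 0 h (n = 3), GA3 at 3 h (n = 3), GA3 at 24 h (n = 3), mock at 24 h (n = 3) and GA3 at 168 h (n = 2). All groups carry the ft-10 lesion, and the labels name no leaf set apart as distant from the needle. Mock leaves were taken at 24 h alone, so the needle, GA3 and elapsed time cannot be told apart in the GA3 groups at 3 h and 168 h. Untreated leaves were taken at 0 h alone. Mock leaves therefore differ from them in both the needle and 24 h of elapsed time, which cannot be told apart. GA3 leaves at 24 h differ from untreated leaves in needle, GA3 and time together.

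Systemic acquired resistance is a state in which a plant that has met a pathogen or a signal of attack in one leaf responds faster in its other leaves. Azelaic acid, a product of fatty acid breakdown, is one of its mobile signals, and AZI1 was named as a gene that azelaic acid induces and that priming needs. EARLI1, AZI3 and AZI4 are close copies of AZI1. DIR1 is a lipid transfer protein that moves through the phloem and is needed for the long-distance signal. ALD1 is the aminotransferase that starts the path from lysine to pipecolic acid, and FMO1 is the monooxygenase that turns pipecolic acid into N-hydroxypipecolic acid, which sets off the resistance state.

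Libraries held 20448913 to 26537437 reads, and 88.8% to 95.8% of them fell in genes. Levels are given as CPM, a gene's reads relative to its library's total after TMM scaling between libraries, with the SD over the libraries of a group. The 5 leaf markers summed to 15400 to 45300 CPM, the 4 flower markers to at most 1.22 CPM and the 3 seed markers to at most 0.164 CPM, with CRU3 and OLEO1 at 0 throughout. The 3 root markers summed to 19.6 to 44.5 CPM. Of these the root hair marker RHD6 was at 0 in every library, PYK10 stood at 0 to 12.9 CPM and SCR at 16.6 to 43.3 CPM. FT reads stood at 4.13 ± 0.654 CPM in untreated leaves and at 34.2 ± 20.5 CPM in mock, and with GA3 at 43.65 ± 6.86, 14.2 ± 5.80 and 7.35 ± 1.49 CPM at 3, 24 and 168 h, and a count per gene does not show which part of the transcript was read. In bulk leaf RNA, fewer cells of a type and less RNA per cell cannot be told apart.

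One untreated library stood apart in the genes of resistance. Untreated replicate 1 was at least 2-fold above both other untreated libraries for ALD1 and FMO1 alike, for 8 of 15 resistance regulators and for 6 of 7 resistance outputs, against 7.23% of all tested genes. In the group at 24 h of GA3, replicate 1 was that far above its partners for 5 of 7 outputs and 3 of 15 regulators, against 4.36% of all tested genes. At 3 h of GA3 replicate 3 was that far above its partners for ALD1 and FMO1, against 6.5% of all tested genes. Mock replicate 3 was the highest mock library for all 4 lipid transfer genes. Results against untreated leaves are therefore given with and without untreated replicate 1 wherever ALD1, FMO1 or these lists are concerned. That library was singled out for high values in these same genes, so leaving it out raises most of their fold changes against untreated leaves. Values and calls without it are a description and not a test.

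The 4 lipid transfer genes formed a row on the minus strand of chromosome 4 within 13869 bases, from chr4:7401087-7414955 in TAIR10.1. AZI1 (AT4G12470) covers chr4:7401087-7401951, EARLI1 (AT4G12480) chr4:7406065-7406994, AZI3 (AT4G12490) chr4:7409621-7410406 and AZI4 (AT4G12500) chr4:7413990-7414955. Each gene has 1 exon, and 2626 to 4113 bases separate neighbours. Their coding sequences are 486, 507, 549 and 534 bases long in that order. AZI3 and AZI4 were the closest pair, with 90.5% identical bases in the aligned coding sequence, and AZI1 and AZI3 the most distant, with 78.1%. AZI3 and AZI4 share 1 unbroken run of 87 bases, at chr4:7409848-7409934 and chr4:7414387-7414473, which is shown since reads that lie wholly inside it cannot be assigned to either gene.
AZI3 and AZI4 shared run, minus strand: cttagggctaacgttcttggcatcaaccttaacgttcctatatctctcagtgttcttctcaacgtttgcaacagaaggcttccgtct
Of all 50-base windows of the exons, 6.784% in AZI3 and 5.453% in AZI4 occurred elsewhere in the TAIR10.1 genome, and no window of 100 bases did. No 50-base window of AZI1, EARLI1, DIR1, ALD1 or FMO1 had a second copy. Strand mattered more than copies. Over all libraries AZI3 had 31539 counts on its own strand and 10983 when strand was ignored, and 35.9% of its exon lies opposite AT4G12495. EARLI1 had 40175 counts on its strand and 34842 when strand was ignored, with 3.4% of its exon opposite AT4G12485.

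The 250 bases before the start are shown for AZI1 and EARLI1, the pair that chose the genes. They come from the TAIR10.1 genome at RefSeq coordinates, minus strand, at chr4:7401952-7402201 and chr4:7406995-7407244. Capitals mark the letters TTGAC, the W-box core that WRKY factors bind, on either strand.
AZI1: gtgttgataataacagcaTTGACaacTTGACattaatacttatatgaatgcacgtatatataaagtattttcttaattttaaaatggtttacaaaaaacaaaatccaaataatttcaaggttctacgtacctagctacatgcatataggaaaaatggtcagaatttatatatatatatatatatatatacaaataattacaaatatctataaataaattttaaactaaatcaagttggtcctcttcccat
EARLI1: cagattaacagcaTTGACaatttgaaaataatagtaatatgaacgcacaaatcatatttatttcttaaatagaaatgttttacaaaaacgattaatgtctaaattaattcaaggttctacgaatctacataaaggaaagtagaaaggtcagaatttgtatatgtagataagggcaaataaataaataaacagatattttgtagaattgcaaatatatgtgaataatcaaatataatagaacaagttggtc
TTGAC occurred 2 times before AZI1 and 1 time before EARLI1, and 44.9% of 27443 promoters of this length hold it. Neither window held TGACG, the core that TGA factors bind (18.6% of promoters), the G-box CACGTG (6.49%) or the GCC box GCCGCC (1.87%). Both windows hold the letters caagttggtc, which begin 20 bases before the start of AZI1 and 10 before that of EARLI1. They are the longest letters common to the windows of AZI1, EARLI1 and AZI3, and begin 74 bases before the start of AZI3. The window of AZI4 does not hold them. AZI1 and EARLI1 alone share a longer run, of 15 bases. The string caagttggtc was found after the windows were seen, and 0.0474% of promoters hold it on that strand or the other. That share includes the genes it was taken from. The windows of AZI1 and EARLI1 were identical at 64.9% of aligned bases. A match of letters is a description and not a bound site.

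AZI1, the azelaic-acid-induced gene, was read at 6.51, 2.17 and 1.96 CPM in the untreated libraries and at 33.8, 41.6 and 169.5 CPM in the mock libraries. With GA3 it was read at 8.03, 9.03 and 12.5 CPM at 3 h, at 7.07, 18.9 and 20.5 CPM at 24 h, and at 5.51 and 6.12 CPM at 168 h. Every mock library lay above every other library, and mock replicate 3 lay far above the other mock libraries. The group means fell in the order mock 24 h, GA3 24 h, GA3 3 h, GA3 168 h and untreated, and the libraries of GA3 24 h and GA3 3 h overlapped, as did those of GA3 168 h and untreated.

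EARLI1, also known from responses to cold and aluminium, was read at 10.8, 17.0 and 18.3 CPM in untreated leaves and at 142.7, 301.6 and 771.5 CPM in mock leaves. With GA3 it stood at 12.7, 57.2 and 44.8 CPM at 3 h, at 72.0, 118.7 and 157.5 CPM at 24 h, and at 103.2 and 73.7 CPM at 168 h. The mock and GA3 24 h libraries overlapped, since the lowest mock library lay under the highest GA3 library. Both 24 h groups lay wholly above the untreated group, and so did the 168 h group.

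AZI3 was read at 2.79, 9.59 and 12.4 CPM in untreated leaves and at 157.1, 309.9 and 514.0 CPM in mock leaves. With GA3 it stood at 1.32, 39.5 and 6.90 CPM at 3 h, at 60.6, 101.2 and 135.1 CPM at 24 h, and at 100.9 and 63.8 CPM at 168 h. Replicate 2 of the 3 h group was high and replicate 1 was under every untreated library, so the 3 h and untreated groups overlapped. The mock, GA3 24 h and GA3 168 h groups each lay wholly above the untreated group.

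Of the 4 genes AZI4 had the lowest mean per kb of exon in untreated leaves. It was read there at 0.133, 0.533 and 1.96 CPM, from 3, 12 and 37 counts. In mock leaves it was read at 71.3, 129.0 and 191.3 CPM. With GA3 it stood at 2.12, 10.6 and 5.67 CPM at 3 h, at 37.4, 59.5 and 81.5 CPM at 24 h, and at 23.6 and 18.9 CPM at 168 h. The order was mock 24 h, GA3 24 h, GA3 168 h, GA3 3 h and untreated, and of the neighbours in that order the mock and GA3 24 h libraries alone overlapped.

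**Figure D1:**
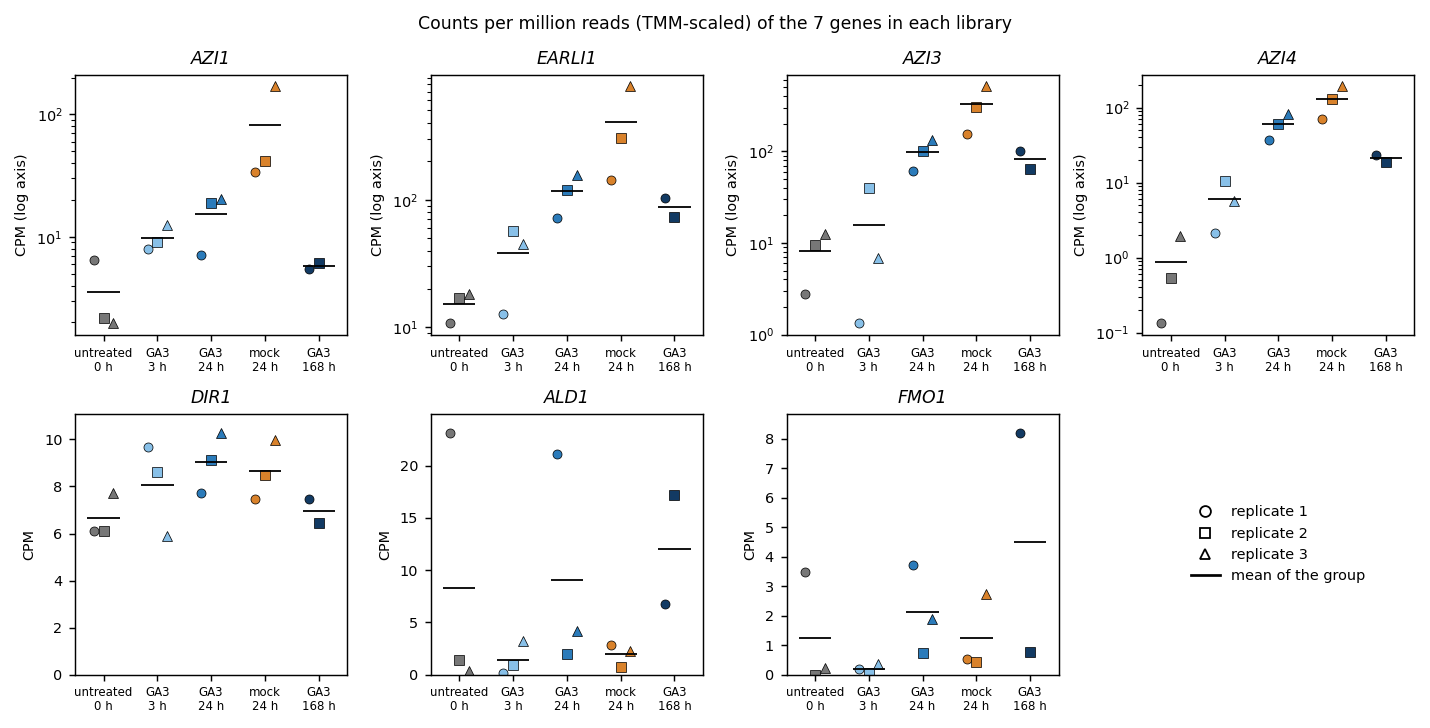
Levels of the 7 genes in each library, as CPM on the vertical axis (a log axis for AZI1, EARLI1, AZI3 and AZI4, a linear axis from 0 for DIR1, ALD1 and FMO1) by group on the horizontal axis. Points are libraries, with their shape giving the replicate, and bars are group means. The mock libraries of AZI1, at 33.8 CPM and above, lie over all its others, and ALD1 has 1 untreated library at 23.1 CPM over the other two at 1.42 CPM or less.

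The values that chose the genes are those of mock against untreated leaves, and they are described here with no test. The fitted log2 fold change was 4.52 ± 0.721 (SE) for AZI1, 4.72 ± 0.697 for EARLI1, 5.31 ± 1.06 for AZI3 and 7.26 ± 0.864 for AZI4. None of the libraries of these 4 genes overlapped between the groups. The share of all genes that separate so is not given, here or below, and non-overlap is a description only. DIR1 stood at 0.38 ± 0.216, ALD1 at -2.09 ± 1.36 and FMO1 at 0.01 ± 1.31, and the libraries of all 3 overlapped. Without mock replicate 3 the log2 fold change was 3.42 for AZI1 and 3.86 for EARLI1, without untreated replicate 1 it was 5.29 for AZI1, and without untreated replicate 3 it was 8.59 for AZI4. Without untreated replicate 1 the value of ALD1 turned to 1.09 and that of FMO1 became 3.57. Over all genes, 0.777% were called at an adjusted p under 0.05 in edgeR's quasi-likelihood test, 122 higher (0.608%) and 34 lower (0.169%) in mock, with 78.2% of calls higher and 90.1% when libraries were scaled by total counts. That share was 0.0199% without untreated replicate 2, 0.0599% without untreated replicate 3, and 0.354%, 0.399% and 0.270% without mock replicates 1, 2 and 3.

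With mock as the reference at the matched time of 24 h, the means of the 4 lipid transfer genes were lower with GA3, and none of the 5 tested members passed. AZI1 stood at 15.5 ± 7.33 CPM with GA3 and 81.6 ± 76.2 CPM in mock, a log2 fold change of -2.40 ± 0.649, and EARLI1 at 116.1 ± 42.8 and 405.3 ± 327.0 CPM, a log2 fold change of -1.80 ± 0.613. Those values carry no test, since the mock libraries had chosen both genes. AZI3 differed by -1.72 ± 0.903 (adjusted p = 0.759, edgeR) and AZI4 by -1.13 ± 0.639 (adjusted p = 0.768, edgeR). DIR1 differed by 0.06 ± 0.215 (adjusted p = 0.975), ALD1 by 2.21 ± 1.36 (adjusted p = 0.785) and FMO1 by 0.75 ± 1.30 (adjusted p = 0.939). Without mock replicate 3 the value of AZI1 was -1.29 and that of EARLI1 -0.94, and without GA3 24 h replicate 1 the value of ALD1 was 0.64. At an unadjusted p under 0.05, 0 of the 5 passed, and DESeq2 called 0. Across all genes edgeR called 0 (0%), with 1322 at an unadjusted p under 0.05, and DESeq2 called 49. A p that misses the threshold does not show that the groups were alike.

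Against untreated leaves, AZI4 rose in all 3 GA3 groups, AZI3 rose at 168 h, and DIR1, ALD1 and FMO1 did not pass in any. These comparisons share the untreated libraries with the comparison that chose the genes, so AZI1 and EARLI1 carry no test in them. AZI3 and AZI4 came in as their neighbours and ran close to EARLI1 over the 14 libraries (Pearson r of 0.949 and 0.956). Their tests against untreated or mock leaves are therefore not independent of the choice. At 3 h the log2 fold change of AZI4 was 2.84 ± 0.763 (adjusted p = 0.0287, edgeR), and 1 of 5 tested members passed, against 14.2% of all genes (8.55% higher and 5.64% lower). At 24 h it was 6.12 ± 0.829 (adjusted p = 0.00988, edgeR), again 1 of 5, against 4.93% of all genes (2.92% higher). At 168 h it was 4.64 ± 0.819 (adjusted p = 0.00221, edgeR), and AZI3 stood at 3.32 ± 1.02 (adjusted p = 0.0283, edgeR), so that 2 of 5 passed, against 31.2% of all genes (15.1% higher). The counts at 3 h and 168 h are near those background shares. AZI3 at 24 h lay just short of the threshold, at 3.58 ± 0.981 (adjusted p = 0.0571, edgeR), with no overlap between libraries, and passed in DESeq2 (adjusted p = 0.000626).

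Untested values ran beside these. AZI1 differed from untreated leaves by 1.47 ± 0.653 at 3 h, 2.12 ± 0.661 at 24 h and 0.71 ± 0.716 at 168 h of GA3. EARLI1 differed by 1.32 ± 0.610, 2.92 ± 0.642 and 2.52 ± 0.671 at those times. For AZI1 the libraries at 168 h overlapped the untreated ones, and for EARLI1 those at 3 h did. Without untreated replicate 1, the highest untreated library for AZI1, the values of AZI1 were 2.22, 2.89 and 1.46. AZI3 at 3 h stood at 0.94 ± 0.906 (adjusted p = 0.527, edgeR) and turned to -1.03 without replicate 2 of that group.

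The calls of AZI4 at 24 h and 168 h held without any 1 library, and the call at 3 h did not. At 3 h it was lost without untreated replicate 1 (log2 fold change 2.29, adjusted p = 0.0621, edgeR), without untreated replicate 2 (2.58, adjusted p = 0.103) and without GA3 3 h replicate 2 (2.17, adjusted p = 0.114). Without untreated replicate 3, which holds most of the untreated AZI4 counts, the log2 fold change was 4.18 at 3 h, 7.46 at 24 h and 5.97 at 168 h. AZI3 at 168 h did not hold its call when any 1 of its 5 libraries was left out, which gave adjusted p from 0.0520 to 0.0960 in edgeR. The background share also moved. At 3 h it was 8.10% without untreated replicate 2, 7.39% without untreated replicate 3 and 7.37% without GA3 3 h replicate 2. At 24 h it was 1.61% and 0.0299% without untreated replicates 2 and 3, and 1.46% and 0.998% without GA3 24 h replicates 1 and 2. At 168 h it was 12.2% without GA3 168 h replicate 2. With libraries scaled by total counts the share of calls that were higher went from 60.3% to 72.1% at 3 h and from 48.4% to 63% at 168 h, and the median of all genes moved to 0.115 and 0.208 on the log2 scale.

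**Figure D2:**
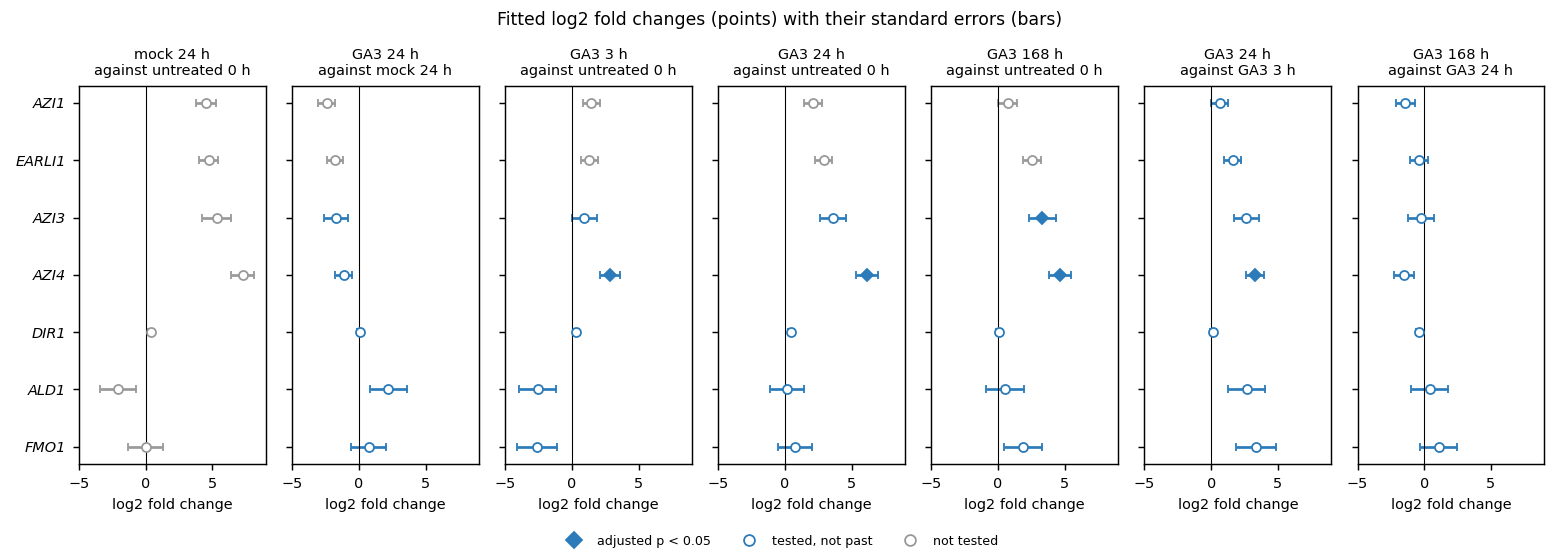
Fitted log2 fold changes of the 7 genes (horizontal axis, points) with their standard errors (bars) in the 7 comparisons, 1 panel each. Filled diamonds passed an adjusted p of 0.05 in edgeR, open blue circles were tested and did not, and grey circles carry no test. AZI4 is the gene with 4 diamonds and AZI3 the gene with 1.

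Between GA3 times, which share no library with the comparison that chose the genes, all 7 members were tested. From 3 h to 24 h AZI4 rose by a log2 fold change of 3.28 ± 0.698 (adjusted p = 0.0138, edgeR), and it was the 1 member of 7 that passed, against 11.4% of all genes (5.68% higher and 5.72% lower). The libraries of EARLI1, AZI3 and AZI4 at 24 h lay wholly above those at 3 h, with the share of all genes that do so not given. EARLI1 stood at 1.60 ± 0.611 (adjusted p = 0.110, edgeR) and AZI3 at 2.64 ± 0.938 (adjusted p = 0.0895, edgeR), and both passed in DESeq2, with adjusted p of 0.0356 and 0.0124. AZI1 stood at 0.65 ± 0.628 (adjusted p = 0.536, edgeR) and its libraries overlapped. The call of AZI4 held without any 1 library, with adjusted p up to 0.0436 in edgeR, and without GA3 3 h replicate 2 its log2 fold change was 3.96. AZI3 passed without that same library (4.61, adjusted p = 0.0196, edgeR). The background share was 4.49% without GA3 3 h replicate 2, and 3.74% and 7.18% without GA3 24 h replicates 2 and 3. Scaling by total counts took the share of higher calls from 49.8% to 29.2% and the median of all genes to -0.187.

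From 24 h to 168 h of GA3, 0 of 7 members passed in edgeR, 0 reached an unadjusted p under 0.05 and DESeq2 called 0, against 24.2% of all genes called. AZI1 stood at -1.41 ± 0.737 (adjusted p = 0.178, edgeR) and AZI4 at -1.49 ± 0.746 (adjusted p = 0.161, edgeR), and the libraries of both at 168 h lay wholly under those at 24 h. EARLI1 stood at -0.39 ± 0.673 and AZI3 at -0.27 ± 0.989, with overlapping libraries and adjusted p of 0.700 and 0.868 in edgeR. The background share was 15.4% and 13.2% without GA3 24 h replicates 2 and 3 and 4.36% without GA3 168 h replicate 2. Under total counts the share of higher calls went from 42.6% to 64.8% and the median of all genes to 0.283.

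The 4 genes did not keep the same proportions. Per kb of exon, EARLI1 and AZI3 were the most abundant in mock leaves, at 435.8 ± 351.6 and 416.0 ± 227.8 CPM per kb, against 135.1 ± 62.1 for AZI4 and 94.4 ± 88.1 for AZI1. In untreated leaves the order was EARLI1 at 16.5 ± 4.35, AZI3 at 10.5 ± 6.29, AZI1 at 4.10 ± 2.96 and AZI4 at 0.907 ± 0.996 CPM per kb. As a share of the 4-gene sum per kb, AZI4 made up 0.604% to 5.11% in untreated libraries, 7.59% to 8.23% at 3 h of GA3, 18.1% to 19.2% at 24 h of GA3, 10.5% to 15.8% in mock and 9.04% to 10.4% at 168 h. The share of AZI4 at 24 h of GA3 lay above that of every other library. AZI1 made up 5.71% to 33.0% in untreated libraries and 2.36% to 3.79% at 168 h, where its libraries lay under those of every other group. EARLI1 made up 32.9% to 62.4% over all libraries. Shares with few counts behind them, as in untreated replicate 1, are the least precise. The sum of the 4 genes was 28.05 ± 7.31 CPM in untreated leaves, 70.1 ± 46.1 at 3 h, 290.0 ± 109.0 at 24 h and 197.8 ± 50.04 at 168 h of GA3, and 944.4 ± 636.4 CPM in mock leaves.

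**Figure D3:**
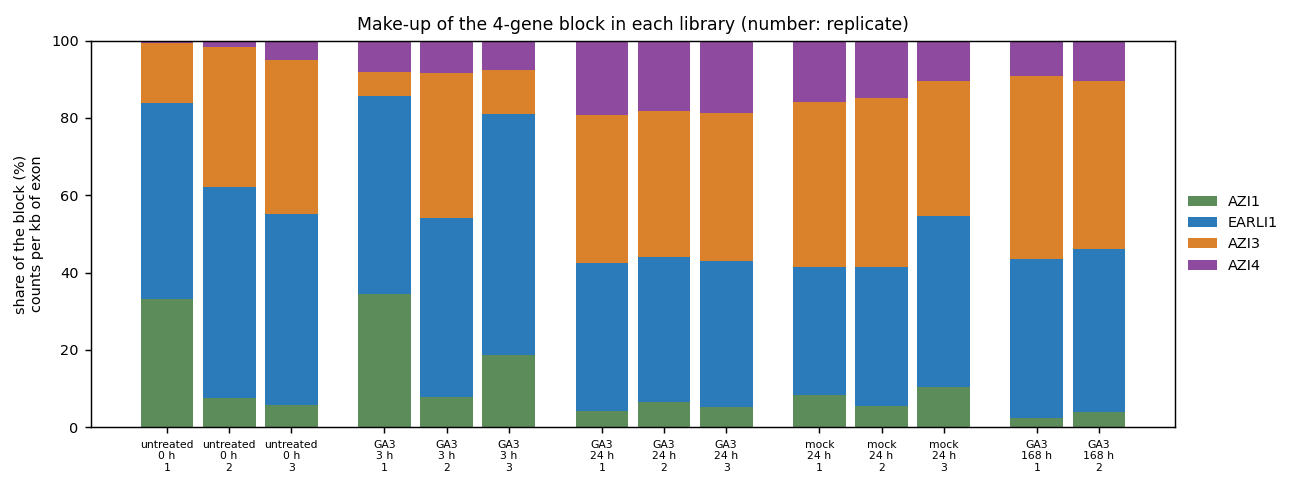
Share of AZI1, EARLI1, AZI3 and AZI4 in their sum of counts per kb of exon (vertical axis, %) in each of the 14 libraries (horizontal axis, with the replicate number). The AZI4 share lies between 18.1% and 19.2% in the 3 libraries at 24 h of GA3 and at 5.11% or less in the untreated ones.

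None of the 3 genes on each side reached the mock levels of the 4 genes. On the start side, ORP2B, 4576 bases away, stood between 19.8 and 33.3 CPM in all 14 libraries, and its log2 fold change lay from -0.09 to 0.22 over the 7 comparisons (smallest adjusted p = 0.429, edgeR). AT4G12450 reached 1.02 CPM at most. On the end side, AT4G12510, 2113 bases away, had 0 counts in every library, which allows at most 3 counts or 0.123 to 0.161 CPM in a library. AT4G12520 and AT4G12530 reached at most 0.781 and 0.540 CPM. APT4, 20715 bases away, differed in 1 comparison, GA3 168 h against untreated (3.22 ± 0.755, adjusted p = 0.00844, edgeR), and that call was lost without GA3 168 h replicate 2 (1.47, adjusted p = 0.235), the library that held 3.996 CPM against 0.715 CPM in its partner. Counts and intervals of this kind cover counting error only.

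**Figure D4:**
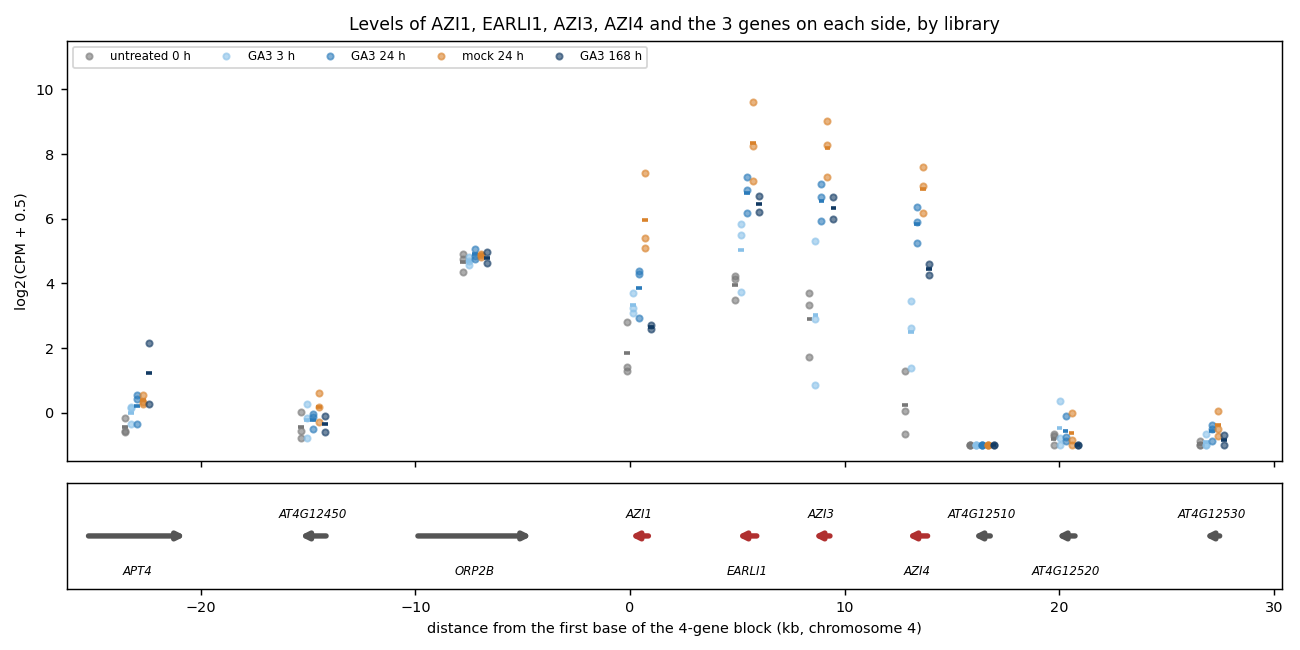
Levels of AZI1, EARLI1, AZI3, AZI4 and of the 3 annotated genes on each side, as log2(CPM + 0.5) on the vertical axis, against distance in kb from the first base of the row of 4 on chromosome 4. Points are libraries, small bars are group means on this scale, and arrows in the lower panel give the extent and strand of each gene. All mock points of AZI1 and AZI3 lie above the other groups, those of EARLI1 and AZI4 overlap GA3 24 h, and the points of ORP2B stay between 19.8 and 33.3 CPM in all groups.

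DIR1 (AT5G48485, chr5:19646028-19646840, minus strand, 1 exon), the phloem-mobile lipid transfer protein, stayed between 5.91 and 10.3 CPM. It was read at 6.11, 6.12 and 7.74 CPM in untreated leaves, 9.66, 8.64 and 5.91 CPM at 3 h of GA3, 7.72, 9.13 and 10.3 CPM at 24 h of GA3, 7.48, 8.5 and 9.99 CPM in mock, and 7.48 and 6.43 CPM at 168 h. Neighbouring groups in the order of means all overlapped, while the libraries at 168 h lay wholly under those at 24 h of GA3. No comparison passed, with log2 fold changes of 0.28 ± 0.216, 0.44 ± 0.216 and 0.06 ± 0.241 against untreated leaves at 3, 24 and 168 h of GA3 (adjusted p of 0.425, 0.250 and 0.867, edgeR). Between GA3 times DIR1 stood at 0.16 ± 0.215 from 3 h to 24 h and at -0.38 ± 0.243 from 24 h to 168 h (adjusted p of 0.661 and 0.271, edgeR). The whole gene, 100% of its exon, lies opposite AT5G48480, so it had 0 counts when strand was ignored, and its values rest on the strand used.

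ALD1 (AT2G13810, chr2:5768417-5772266, plus strand, 10 exons) starts the path to pipecolic acid and spread widely within groups. It was read at 23.1, 1.42 and 0.371 CPM in untreated leaves, 0.132, 0.927 and 3.16 CPM at 3 h of GA3, 21.1, 1.94 and 4.13 CPM at 24 h of GA3, 2.85, 0.699 and 2.30 CPM in mock, and 6.77 and 17.2 CPM at 168 h. Replicate 1 was the high library in the untreated and GA3 24 h groups, and neighbouring groups in the order of means all overlapped. Against untreated leaves the log2 fold change was -2.55 ± 1.39 at 3 h, 0.12 ± 1.27 at 24 h and 0.53 ± 1.41 at 168 h of GA3 (adjusted p of 0.246, 0.969 and 0.809, edgeR). Without untreated replicate 1 these became 0.60, 3.29 and 3.69, with adjusted p of 0.783, 0.154 and 0.0620 in edgeR. From 3 h to 24 h of GA3 ALD1 stood at 2.67 ± 1.39 (adjusted p = 0.229, edgeR).

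FMO1 (AT1G19250, chr1:6650476-6653195, minus strand, 5 exons) acts after ALD1, and its group means lay between 0.104 and 2.35 CPM per kb of exon. Its levels were 3.5, 0 and 0.212 CPM in untreated leaves, 0.176, 0.0488 and 0.370 CPM at 3 h of GA3, 3.72, 0.735 and 1.87 CPM at 24 h of GA3, 0.538, 0.430 and 2.75 CPM in mock, and 8.20 and 0.782 CPM at 168 h. The library with 0 counts allows up to 3 counts, or 0.133 CPM. One library stood high in each of the untreated, mock and 168 h groups, and FMO1 at 24 h of GA3 lay wholly above 3 h. That last comparison gave a log2 fold change of 3.35 ± 1.51 (adjusted p = 0.169, edgeR). Against untreated leaves FMO1 stood at -2.58 ± 1.51 at 3 h, 0.76 ± 1.30 at 24 h and 1.85 ± 1.41 at 168 h (adjusted p of 0.279, 0.778 and 0.341, edgeR). Without untreated replicate 1 these became 0.96, 4.32 and 5.38, with adjusted p of 0.739, 0.117 and 0.0280 in edgeR, so that FMO1 at 168 h passed without it. Since FMO1 was among the genes that set untreated replicate 1 apart, that pass is a description and not a test.

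The libraries highest in ALD1 were compared with those lowest in EARLI1, AZI3 and AZI4. In the untreated, GA3 24 h, mock and GA3 168 h groups, the library highest in ALD1 was the lowest of its group in EARLI1, AZI3 and AZI4. At 3 h of GA3 it was not, since replicate 3 was highest in ALD1 and replicate 1 was lowest in those genes. In every group of 3 libraries replicate 1 was the lowest in EARLI1, AZI3 and AZI4, so the order also runs with the replicate number. AZI1 differed, since the library highest in ALD1 was also the highest in AZI1 in the untreated, GA3 3 h and GA3 168 h groups and the lowest in it in the GA3 24 h and mock groups. With 2 or 3 libraries a group this is an order of values and no test.

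By likeness of log2(CPM + 0.5) over the 14 libraries, which fall in 5 groups so that shared group levels add to it, EARLI1 was closest to AZI4 among 20076 genes (Pearson r = 0.956) and AZI3 ranked 3 (0.949), with WRKY31 (0.951), PA2 (0.945) and LBD11 (0.921) among the first 5. For AZI1 the 5 closest were AT3G21080 (0.926), MPK14 (0.916), AT4G02320 (0.902), GAPCP-1 (0.877) and LBD11 (0.876), and EARLI1 ranked 12 (0.840), AZI4 43 (0.779) and AZI3 162 (0.675). For ALD1 the 5 closest were VPS35A (0.911), ABCC4 (0.908), LGO (0.894), ARO4 (0.887) and AT1G68710 (0.882), and FMO1 ranked 407 (0.698). For FMO1 they were AT4G05540 (0.923), PDIL1-2 (0.906), AT1G61080 (0.900), PAD1 (0.883) and AT3G14920 (0.880). ALD1 and EARLI1 had an r of 0.03.

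Apart from the members, the pathway was followed through 4 gene lists. Of the regulators around N-hydroxypipecolic and salicylic acid, 15 of 15 listed were tested, and few passed in edgeR while untreated replicate 1 was in the fit. At 168 h of GA3 against untreated leaves 2 of 15 rose and 0 fell, near or under the background of 15.1% higher and 16.1% lower, with a list median of 0.22 against 0.01 for all genes. They were CBP60G, a transcription factor of salicylic acid synthesis (2.05 ± 0.487, adjusted p = 0.00898, edgeR), and PBS3, the enzyme that conjugates isochorismate (2.91 ± 0.917, adjusted p = 0.0317, edgeR). CBP60G lost its call without GA3 168 h replicate 2 (adjusted p = 0.0622). PBS3 lost it without untreated replicates 2 or 3 or either GA3 168 h library (adjusted p of 0.0684 to 0.101) and stood at 4.42 without untreated replicate 1. At 3 h, 0 rose and 2 of 15 fell, with a median of -0.52, beside 8.55% of all genes higher and 5.64% lower. These were SAG101, a partner of EDS1 (-1.04 ± 0.309), and the calcium-dependent kinase CPK5 (-0.97 ± 0.286), with adjusted p of 0.0425 and 0.0414 in edgeR. The call of CPK5 did not hold with any 1 of the 6 libraries left out (adjusted p of 0.0589 to 0.121) and SAG101 without untreated replicates 1 or 3 or GA3 3 h replicates 1 or 2 (0.0566 to 0.116). At 3 h 5 of 15 reached an unadjusted p under 0.05 in edgeR, beside 6027 of all 20077 genes. DESeq2 called 4 of them, beside 4274 of all genes. From 3 h to 24 h CPK5 was the 1 of 15 that rose (1.0 ± 0.286, adjusted p = 0.0435, edgeR), beside 5.68% of all genes called higher. Leaving out 5 of the 6 libraries, each in turn, ended that call (adjusted p of 0.0813 to 0.161), GA3 24 h replicate 1 being the exception. In that comparison 6 of 15 reached an unadjusted p under 0.05 in edgeR, beside 5716 of all 20077 genes. DESeq2 called 4 of the regulators there, beside 3710 of all genes. In GA3 24 h against untreated 0 passed in edgeR, 1 reached an unadjusted p under 0.05 and DESeq2 called 1, and for both comparisons with mock the counts were 0 by each measure. From 24 h to 168 h 0 passed in edgeR, with 2 at an unadjusted p under 0.05 and 1 in DESeq2.

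Without untreated replicate 1 the same regulators gave more calls. That library was singled out for high values in these genes, so its loss raises most of their fold changes, and these counts are no test. With untreated replicate 2 left out instead, 0 passed at 24 h of GA3. Without untreated replicate 1, 8 of 15 rose at 24 h of GA3, with a median log2 fold change of 1.22 against 0.03 for all genes, of which 4% were called higher. At 168 h 8 of 15 rose, with a median of 1.35 and 15.3% of all genes called higher. In mock 2 of 15 rose, with a median of 0.81 and 0.894% of all genes called higher. At 3 h 2 rose and 0 fell, with a median of 0.84 and 8.59% of all genes called higher.

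Among the 7 outputs of resistance, pathogenesis-related and salicylic-acid-responsive genes, the same library decided most counts. LURP1, needed for defence against a downy mildew, was read at 912, 87.5 and 160 CPM in untreated leaves, 28.7, 10.3 and 69.6 CPM at 3 h and 922, 498 and 315 CPM at 24 h of GA3. It was the 1 output that fell at 3 h (-3.42 ± 0.874, adjusted p = 0.0234, edgeR), with a list median of -1.62 and 5.64% of all genes called lower, and it lost the call without untreated replicate 1 (-1.81, adjusted p = 0.0763) and without GA3 3 h replicates 1 or 2 (adjusted p of 0.0715 and 0.0743), while the value was -4.30 without GA3 3 h replicate 3. From 3 h to 24 h LURP1 (4.0 ± 0.898, adjusted p = 0.0173, edgeR) and AT5G03350 (4.72 ± 1.17, adjusted p = 0.0258, edgeR) rose, with a median of 2.07 over the 7 against -0.03 for all genes, of which 5.68% were called higher. LURP1 then lost its call without GA3 3 h replicates 1 or 2 (0.0521 and 0.0567) and reached 4.90 without replicate 3, and AT5G03350 lost its call without any of the 3 h libraries or GA3 24 h replicate 2 (0.0548 to 0.0821). In each of these 2 comparisons 3 of 7 outputs reached an unadjusted p under 0.05 in edgeR, beside 6027 and 5716 of all 20077 genes. DESeq2 called 1 output in the first and 2 in the second, beside 4274 and 3710 of all genes. PR1, the classic marker of salicylic acid response, was read at 311, 8.83 and 76.0 CPM in untreated leaves, 504, 79.4 and 84.4 CPM at 24 h of GA3, 193, 259 and 1031 CPM in mock, and 2578 and 202 CPM at 168 h, and passed in no comparison. In the other 5 comparisons 0 outputs passed in edgeR, with 1 at an unadjusted p under 0.05, at 168 h against untreated, where DESeq2 called 1 too, and 0 otherwise by either measure. Without untreated replicate 1, 3 of 7 rose at 24 h of GA3, 5 of 7 at 168 h, 1 of 7 in mock and 1 of 7 at 3 h, with medians of 2.69, 4.10, 2.63 and 0.32. The shares of all genes called higher were then 4%, 15.3%, 0.894% and 8.59%. Untreated replicate 1 was singled out for high values in these same outputs, so the counts without it are no test.

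**Figure D5:**
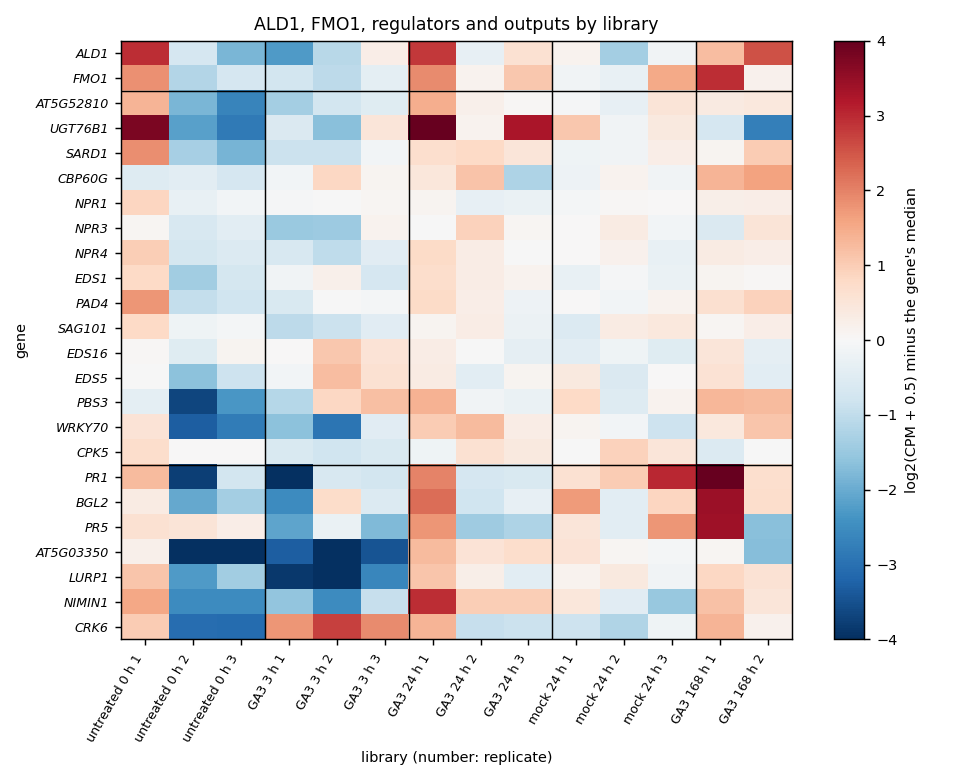
ALD1, FMO1, the 15 regulators and the 7 outputs (rows) in the 14 libraries (columns), coloured by log2(CPM + 0.5) minus the gene's median over the libraries, with values beyond 4 in either direction shown at the end of the scale. Black lines part the groups and lists. Untreated replicate 1 is red in most rows where untreated replicates 2 and 3 are blue, as for ALD1 at 23.1, 1.42 and 0.371 CPM.

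The relatives of EARLI1, genes for proteins of the same build, were lower at 168 h of GA3. Of 18 listed hybrid proline-rich genes 9 were tested. In mock against untreated leaves 0 passed in edgeR, 3 reached an unadjusted p under 0.05 and DESeq2 called 1, with a median of -1.13 against -0.0048 for all genes. At 168 h of GA3 against untreated leaves 0 rose and 6 fell, with a median of -4.43 against 0.01 for all genes, of which 16.1% were called lower. ELP fell by 4.43 ± 0.777 (adjusted p = 0.00215, edgeR), from 326, 373 and 335 CPM to 5.51 and 26.4 CPM, and its log2 fold change was -6.01 without GA3 168 h replicate 2 and -3.71 without replicate 1. CWLP, a protein that links cell wall and membrane, fell by 7.40 ± 0.881 (adjusted p = 0.000513, edgeR), from 263, 150 and 129 CPM to 1.68 and 0.434 CPM, with -8.68 without GA3 168 h replicate 1 and -6.79 without replicate 2. AT2G10940 went from 1041, 998 and 959 CPM to 0.0420 and 0.174 CPM (adjusted p = 0.000339, edgeR), and AT3G22142 from 15.1, 7.90 and 9.12 CPM to 0 counts in both libraries, which allows up to 3 counts in each (adjusted p = 0.00253, edgeR). The other calls were AT2G45180, which stood at -6.79 without GA3 168 h replicate 2 and -2.52 without replicate 1, and AT1G62510, whose call did not hold with any 1 of the 5 libraries left out (adjusted p of 0.0531 to 0.213). Some markers of other cell types also differed at 168 h. The 3 xylem markers summed to 5.43 to 16.6 CPM at 168 h and to 36.8 to 114 CPM elsewhere, and the 3 epidermis markers to 98.3 to 102 CPM at 168 h and to 145 to 413 CPM elsewhere. The 3 guard cell markers summed to 65.6 to 142 CPM at 168 h and to 34.7 to 67.4 CPM elsewhere. Of these KAT1 alone had a higher mean at 168 h than in untreated leaves, at 88.2 against 15.4 CPM. FAMA stood at 12.5 against 18.9 CPM and MYB60 at 2.95 against 6.10 CPM. The 3 phloem companion cell markers summed to 864 to 1260 CPM at 168 h, which overlapped the 639 to 1130 CPM elsewhere. The 5 leaf markers summed to 15400 to 21300 CPM at 168 h, which overlapped the 17300 to 30300 CPM at 3 h, and to 26100 to 45300 CPM in the other groups. No marker of these lists was at 0 in all libraries. Their part in the falls was not tested.

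In the remaining comparisons few relatives passed. At 3 h AT2G10940 fell by 2.79 ± 0.642 (adjusted p = 0.0149, edgeR), and from 3 h to 24 h it rose by 2.78 ± 0.641 (adjusted p = 0.0194, edgeR). It was the 1 call of 9 in each, beside 5.64% of all genes called lower in the first and 5.68% called higher in the second. In the first, 3 of 9 reached an unadjusted p under 0.05 in edgeR, beside 6027 of all 20077 genes, and DESeq2 called 2, beside 4274 of all genes. The fall lost its call without GA3 3 h replicate 2 (0.0576) and was -3.42 without replicate 1, and the rise lost it without GA3 3 h replicate 2 (0.0694) or GA3 24 h replicate 3 (0.0618) and was 3.42 without GA3 3 h replicate 1. At 24 h of GA3 AT4G00165 rose (1.70 ± 0.439, adjusted p = 0.0477, edgeR), a call lost without each of the 6 libraries in turn (0.0528 to 0.174). It was the 1 call of 9, beside 2.92% of all genes called higher. From 24 h to 168 h 5 of 9 fell, with a median of -4.62 against 0.04 for all genes, of which 13.9% were called lower. Among those 5 relatives, AT3G22142 and AT4G00165 lost their calls without GA3 168 h replicate 2. ELP, CWLP and AT2G10940 kept theirs without any 1 library. Against mock at 24 h 0 passed in edgeR, 2 reached an unadjusted p under 0.05 and DESeq2 called 0. GA3 24 h replicate 3 was at least 2-fold above both its partners for 6 of the 9 relatives, against 2.95% of all tested genes.

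The last list held 10 partners of AZI1 and DIR1, among them genes for lipid enzymes, kinases and plasmodesmal proteins, and all were tested. At 168 h of GA3 against untreated leaves 2 rose and 1 fell, with a median of -0.09. That count is near the background of 15.1% of all genes higher and 16.1% lower. DGD1, which makes the galactolipid DGDG, rose by 1.85 ± 0.363 (adjusted p = 0.00368, edgeR), from 38.8, 34.7 and 35.4 CPM to 146 and 116 CPM. FAD7, a fatty acid desaturase of the plastid, fell by 1.87 ± 0.324 (adjusted p = 0.00207, edgeR), from 343, 403 and 383 CPM to 134 and 72.9 CPM. Both calls held without any 1 library. HWI1, a plasmodesmal protein also named PDLP5, rose by 1.93 ± 0.530 (adjusted p = 0.0180, edgeR) and lost the call without untreated replicate 2 (adjusted p = 0.0607) or GA3 168 h replicate 2 (1.30, adjusted p = 0.184). MGD1, which makes the galactolipid MGDG, rose at 3 h by 1.14 ± 0.328 (adjusted p = 0.0374, edgeR), the 1 call of 10 beside 14.2% of all genes, and a call lost without any untreated library or GA3 3 h replicates 2 or 3 (0.0763 to 0.111). In mock against untreated leaves 0 passed in edgeR, 0 at an unadjusted p under 0.05 and 0 in DESeq2, with a median of 0.10. GA3 24 h against mock gave 0 in edgeR, 1 at an unadjusted p under 0.05 and 0 in DESeq2, and GA3 24 h against untreated gave 0, 1 and 1. From 3 h to 24 h AT5G48490 was called higher and MGD1 lower, beside 5.68% of all genes higher and 5.72% lower. From 24 h to 168 h AT5G48490 and FAD7 were called lower, beside 13.9% of all genes. AT5G48490 was read at 0, 1.63 and 30.6 CPM at 24 h, and without GA3 24 h replicate 3 both of its calls were lost (adjusted p of 0.127 and 0.239). The first was also lost without any 1 of the 3 h libraries (0.0865 to 0.103), and the second without GA3 24 h replicate 2 or either 168 h library (0.0528 to 0.184). MGD1 lost its call without GA3 3 h replicates 2 or 3 or any GA3 24 h library (0.0531 to 0.141), and FAD7 kept its own throughout. At 3 h against untreated, from 3 h to 24 h and from 24 h to 168 h, 3, 4 and 5 of 10 reached an unadjusted p under 0.05 in edgeR. Over all 20077 genes 6027, 5716 and 7810 did so. DESeq2 called 3, 2 and 4 of the 10 in those comparisons.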

How the data were processed

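The deposited files hold raw counts per gene, made with STAR 2.7.7a on TAIR10 per the submitters' processing notes; the annotation, read length and library kit are not given in the sources used here. Of 3 count columns in the files, the one holding most reads was used, as the opposite strand held 4.86% to 5.51%. Libraries were grouped by treatment and time from the labels, and the design text calls the replicates biological. Members and gene lists were chosen with earlier results of these data known. All 14 libraries were fitted in R 4.3.3 with edgeR 4.0.16 (TMM, filterByExpr, 1 coefficient per group, quasi-likelihood F test), adjusted by Benjamini-Hochberg over 20077 genes at 0.05; SE is the log2 fold change over the square root of F. The group of 2 libraries shares the spread of the others. The fit was tested on simulated data. Comparisons involving the untreated or mock libraries carry no test for AZI1 and EARLI1, and mock against untreated carries none for any member. Named genes were the 7 members, FT, up to 4 genes per list with the smallest p, 3 neighbours on each side, and the 5 genes most like AZI1, EARLI1, ALD1 and FMO1; the other called list genes were named after their values were seen. Of 34218 identifiers, 32548 matched RefSeq TAIR10.1, which gave symbols, coordinates and sequences. The 4 lines for reads in no gene stayed out of library sizes. By library they held 1.53% to 3.2% (unmapped), 0.978% to 4.65% (multimapping), 1% to 2.71% (no feature) and 0.268% to 0.671% (ambiguous) of reads. No library was a copy of another, with chi-square per degree of freedom of 20.1 to 157 in 13 pairs within groups. Deviations from the group means had a median correlation of 0.0499 in 26 same-numbered pairs of libraries and -0.0393 in 52 others. Numbers were not used as pairs in the main fit. Alternatives were RLE factors, total counts, DESeq2 1.42.0, no filter, counts ignoring strand, a replicate block, and leaving out 1 library at a time; for the listed genes they were added after the data were seen. Some promoter sequence is not reported here.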

Additional observations from a re-analysis of the deposited data

Results flagged for a closer look

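Reads on the strand opposite the genes were in no comparison of the report. In the groups named below their CPM stood above the untreated level for the 4 lipid transfer genes, as did reads on the genes' own strand. As a share of both strands they were lower than in untreated leaves for EARLI1 and AZI3. The untreated values rest on few reads, such as 3, 0 and 0 for AZI1. AZI1 had a mean of 1.214 CPM on the opposite strand in mock against 0.044 CPM in untreated leaves, which was 1.49% and 1.27% of both strands. EARLI1 had 5.132 CPM in mock and 0.792 CPM at 168 h of GA3 against 0.278 CPM in untreated leaves, or 1.25%, 0.88% and 1.82% of both strands. AZI3 had 0.869 CPM at 24 h of GA3 and 4.61 CPM in mock against 0.166 CPM in untreated leaves, or 0.85%, 1.41% and 2.1% of both strands. AZI4 had 0.893 CPM in mock, 0.70% of both strands, and 0 CPM in untreated leaves.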

How the results depend on the processing

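Of 287 log2 fold changes of members under other settings, 276 kept their direction and, where tested, their side of the threshold. Those that carry no test counted as kept when they moved by less than the SD within groups. Scaling by total counts turned DIR1 to -0.04449 in GA3 24 h against mock and to -0.009679 from 3 h to 24 h of GA3. Same-numbered libraries were not treated as pairs in the main fit. In 26 same-numbered pairs the deviations correlated from -0.355 to 0.397, with a median of 0.0499, and 10 were over 0.1. In 52 pairs of different number they correlated from -0.388 to 0.393, with a median of -0.0393, and 14 were over 0.1. The replicate block turned EARLI1 to 0.1181 and AZI3 to 0.335 from 24 h to 168 h of GA3, and under it 2 members passed in GA3 24 h against untreated and 2 from 3 h to 24 h. DESeq2 called 1121 genes in mock against untreated, 49 in GA3 24 h against mock, 4274 at 3 h and 2467 at 24 h of GA3 against untreated, and 3710 from 3 h to 24 h. Members called were 2 with DESeq2 and 2 with counts ignoring strand in GA3 24 h against untreated, and 3 with DESeq2 from 3 h to 24 h. The shares of all genes called under the replicate block and with strand ignored are not given here, so those member counts stand without a background.

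With 1 library left out, called genes ranged from 4 to 233 in mock against untreated, 1475 to 3025, 6 to 1384 and 2511 to 6342 at 3, 24 and 168 h of GA3 against untreated, 749 to 2128 from 3 h to 24 h and 898 to 5325 from 24 h to 168 h. Members called ranged from 0 to 1 at 3 h and 1 to 2 at 168 h against untreated, and 1 to 2 from 3 h to 24 h. Directions of members that did not pass, or carry no test, turned in places, with these ranges. In mock against untreated ALD1 ranged from -2.648 to 1.091 and FMO1 from -1.331 to 3.571. In GA3 24 h against mock DIR1 ranged from -0.03972 to 0.172. At 3 h against untreated AZI3 ranged from -1.033 to 1.474, ALD1 from -3.974 to 0.6026 and FMO1 from -3.368 to 0.9565. At 24 h ALD1 ranged from -1.45 to 3.293. At 168 h DIR1 ranged from -0.05497 to 0.1853, ALD1 from -0.3347 to 3.69 and FMO1 from -0.6545 to 5.38. From 3 h to 24 h DIR1 ranged from -0.01045 to 0.3315. From 24 h to 168 h AZI3 ranged from -0.6414 to 0.02514, ALD1 from -0.4514 to 1.978 and FMO1 from -1.432 to 1.915. The cause was not tested. Of 162 values of called list genes with 1 library left out, 65 lost the call, and these alternatives were chosen after seeing the data. Depth limits AZI4, ALD1 and FMO1, which had as few as 3, 3 and 0 counts in a library.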
